A study of Mus musculus with 12 samples.

Results

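Oxysterols are hydroxylated forms of cholesterol, and LXRs are the nuclear receptors that sense them. The 10 genes described here make, break down, sense or answer to oxysterols, and were taken by symbol from the 55487 gene models of the deposited expression table, in which all 10 are present. *Ch25h* and *Cyp27a1* encode hydroxylases that make oxysterols from cholesterol, and *Cyp7b1* encodes a hydroxylase that converts side-chain oxysterols further. *Gpr183* (also called EBI2) encodes a G protein-coupled receptor for dihydroxylated oxysterols. *Nr1h3* (LXRα) and *Nr1h2* (LXRβ) encode the receptors themselves, and *Abca1*, *Abcg1*, *Apoe* and *Mylip* are known targets of LXR. When cholesterol accumulates in a macrophage, LXRs bound to oxysterols raise the transcription of transporters that export it (*Abca1*, *Abcg1*), of the apolipoprotein that carries it (*Apoe*) and of the ubiquitin ligase IDOL, which limits lipoprotein uptake (*Mylip*). In macrophages, *Ch25h* is known as a gene induced by Toll-like receptors and interferon.

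RNA-seq was done on BMDMs, macrophages differentiated from bone marrow with medium conditioned by L929 cells, of C57BL/6 mice aged 8 to 12 weeks. The 4 groups, with 3 biological replicates each and 12 libraries in all, were RasGEF1b-cKO macrophages (Rasgef1b-fl/fl;CMVcre, here KO) treated with LPS, wild-type (WT) macrophages treated with LPS, untreated KO macrophages and untreated WT macrophages. LPS, a bacterial outer membrane component sensed by Toll-like receptor 4, was given at 100 ng/ml for 4 h. Cre was driven by the CMV promoter. The study describes the deletion of exons 7 and 8 of *Rasgef1b*, a guanine nucleotide exchange factor gene, as ubiquitous, germ cells included. It was thus not limited to macrophages. The WT mice were supplied by another animal facility than the one where the KO line was made, so that genotype and colony cannot be told apart.

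Levels are given as normalized counts, in which each library was divided by its size factor, and 1 read was worth 0.660 to 1.41 of them. Between 19316691 and 24977356 reads fell in genes per library. *Rasgef1b* itself, whose reads outside the deleted exons still count, was at 3862 ± 297 normalized counts in LPS-treated KO and 12084 ± 407 in LPS-treated WT macrophages, and at 609 ± 77.4 in untreated KO and 2072 ± 88.2 in untreated WT macrophages (mean ± SD, n = 3 each). All 8 macrophage markers examined were expressed, with a sum of 215104 to 392543 normalized counts per library, against sums of at most 1144 for neutrophil, 128 for dendritic cell, 86.1 for B cell and 1.71 for T and NK cell markers (*Cd3d*, *Nkg7* and *Ncr1* at 0). In bulk RNA, fewer cells of a type and less RNA per cell cannot be told apart. Untreated KO replicate 2 stood apart, with 5.06% of its reads in a ribosomal RNA gene model, against 0.0398% to 0.0874% in the other 11 libraries. *Xist* was high, at 15146 normalized counts or more, in WT replicate 1 and KO replicate 2 under both conditions, and at most 28.7 in the other libraries. *Ddx3y*, a gene of the Y chromosome, was at most 7.85 in the libraries with high *Xist* and at least 1246 in the others. This is the pattern of female cells in the former and male cells in the latter, so each group held both, though the labels give no sex.

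The promoters of *Ch25h* and *Abca1* are shown because these genes moved in opposite directions after LPS. They are the 250 bases before the annotated start in the RefSeq promoter table of GRCm38.p6, which held an entry for 8 of the 10 genes. Capitals mark the cyclic AMP response element (CRE, TGACGTCA, its own reverse complement) in *Ch25h*, and in *Abca1* a direct repeat of the LXR response element type, searched as GGTNA, 5 bases of any kind and GGTNA on both strands and present here on the reverse strand. The sequences run 5′ to 3′ in the direction of transcription, from chr19:34475149-34475398 (reverse strand) and chr4:53159896-53160145 (reverse strand).
Ch25h: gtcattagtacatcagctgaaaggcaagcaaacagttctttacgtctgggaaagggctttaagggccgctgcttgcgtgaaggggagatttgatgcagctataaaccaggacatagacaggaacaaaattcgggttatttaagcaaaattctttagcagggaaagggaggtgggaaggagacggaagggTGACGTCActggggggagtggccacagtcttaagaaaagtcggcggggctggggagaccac
Abca1: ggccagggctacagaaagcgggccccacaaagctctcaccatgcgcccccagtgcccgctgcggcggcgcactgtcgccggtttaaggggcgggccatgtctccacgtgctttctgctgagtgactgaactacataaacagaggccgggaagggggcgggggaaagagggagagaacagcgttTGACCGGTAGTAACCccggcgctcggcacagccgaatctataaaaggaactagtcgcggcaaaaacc
The CRE lies 61 to 54 bases before the RefSeq start of *Ch25h* and occurs in 1.55% of 32851 promoter windows of this length. The gene coordinates of *Ch25h* given below, which end at 34475164, reach into the window shown, so the distance from that start is shorter. The repeat lies 67 to 53 bases before the start of *Abca1* and occurs in 0.621% of the windows. No other of the 10 genes with an entry held either one, and none held an AP-1 site (TGANTCA, in 6.75% of windows) or an interferon response core (TTTC, 2 bases, TTTC, in 2.98% of windows). A match describes the letters only and shows no binding.

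*Ch25h* was higher and *Gpr183* and *Mylip* were lower in LPS-treated macrophages of both genotypes, by more than 2-fold, *Abca1* was just past that threshold in WT, and the other tested genes moved less. Of the 10 genes, 9 had enough reads to be tested. Tests were made with limma on log2 of the normalized count plus 1, which understates the fold changes of low genes. Benjamini-Hochberg adjusted p-values were taken over all genes averaging 10 normalized counts or more in the libraries compared. A call needed both an adjusted p under 0.05 and a log2 fold change of 1 or more in either direction. In KO macrophages 1 of the 9 genes was called higher (*Ch25h*) and 2 lower (*Gpr183*, *Mylip*), where 17.3% and 16.6% of 12732 tested genes were called higher and lower. In WT macrophages 1 was called higher (*Ch25h*) and 3 lower (*Gpr183*, *Mylip*, *Abca1*), where 17.1% and 16.9% of 12656 tested genes were. By adjusted p alone, 4 genes were higher and 4 lower in KO macrophages, where 36.3% and 35.7% of all tested genes were. The count was also 4 higher and 4 lower in WT macrophages, where 36.7% and 36.6% were. Changes by this criterion were thus common among all genes. The split depends on the scaling, and with quantile normalization 2 genes were higher and 7 lower in each genotype. With total reads 1 was higher and 6 lower in KO, and 1 higher and 7 lower in WT. The shares of all genes by this criterion were not taken under these scalings. When single libraries were left out, *Cyp27a1* in KO no longer passed without untreated replicate 3 (limma adjusted p = 0.0597) or LPS-treated replicate 2 (limma adjusted p = 0.0560), nor *Nr1h3* in WT without LPS-treated replicate 2 (limma adjusted p = 0.0567), nor *Nr1h2* in WT in the libraries with low *Xist* alone (limma adjusted p = 0.0651). The median log2 fold change of the 9 genes was 0.26 in KO and 0.25 in WT macrophages, beside -0.01 and -0.02 over all tested genes. Of the 8 macrophage markers, 3 were called higher with LPS in each genotype, and the summed markers of dendritic cells were at 77.4 to 128 normalized counts in LPS-treated and 10.3 to 23.3 in untreated libraries. Their part in the changes of the 10 genes was not tested.

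**Figure D1:**
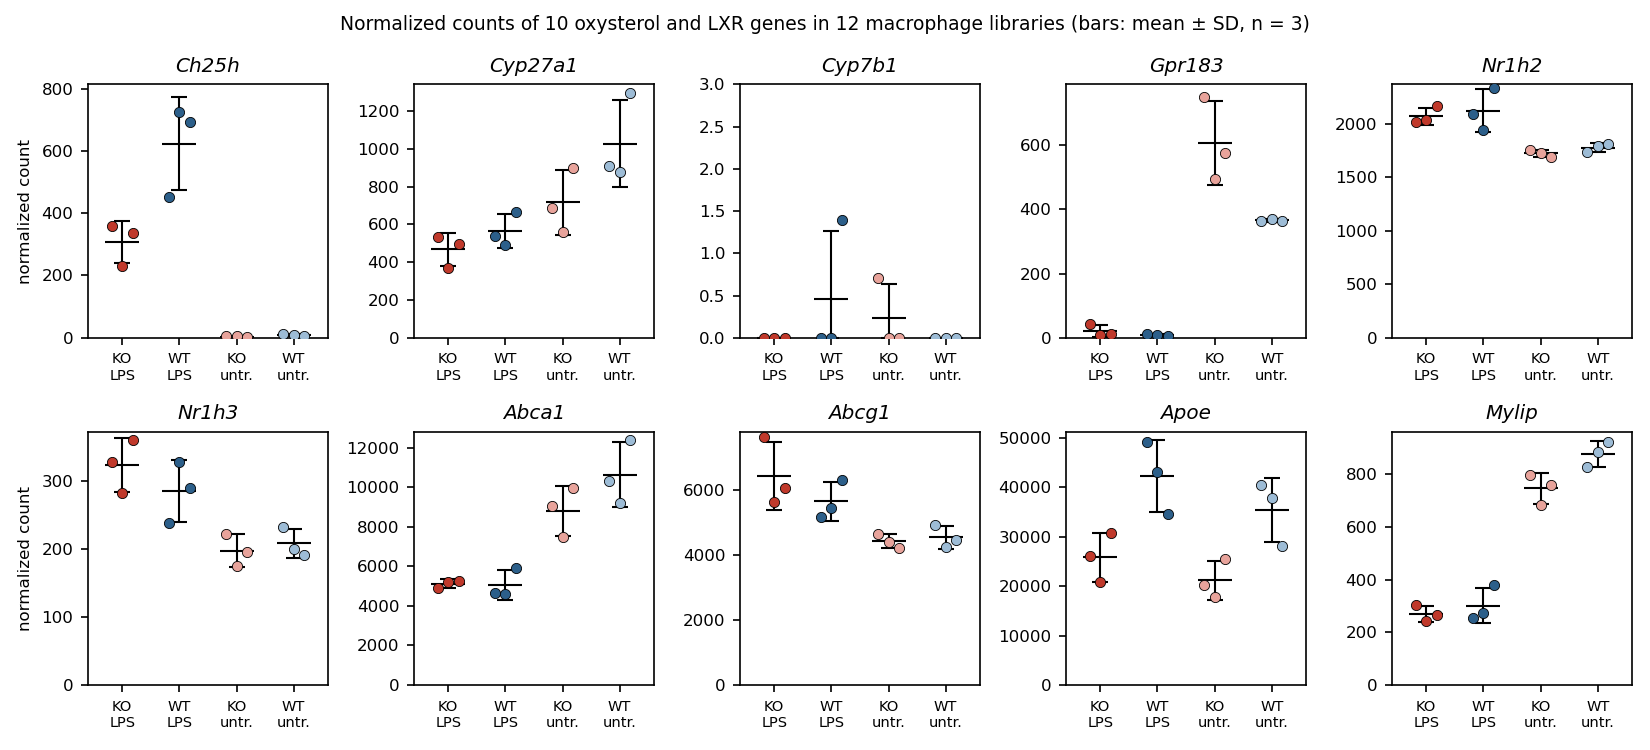
Normalized counts (y axis, linear from 0) of the 10 genes in each of the 12 libraries, with KO LPS, WT LPS, KO untreated and WT untreated from left to right. Points are libraries, bars are the mean and SD of 3 libraries (cut at 0 for *Cyp7b1*), and the axis of each panel has its own range: *Ch25h* is near 0 in all untreated libraries, and *Gpr183* near 0 in all LPS-treated ones.

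*Ch25h*, whose single-exon gene lies on chromosome 19 (GRCm38, 34473778 to 34475164, reverse strand), was almost silent before LPS and had the largest rise of the 10 genes. It had 358, 231 and 335 normalized counts in LPS-treated KO libraries (replicates 1, 2 and 3), against 4.23, 4.28 and 1.43 in untreated ones, which rest on 6, 5 and 2 reads. LPS-treated WT libraries had 450.4, 726 and 694, against 11.1, 9.24 and 7.17 in untreated ones, from 16, 14 and 9 reads. Every LPS-treated library was thus far above every untreated one. The ratio of the means was 93.0 in KO and 68.1 in WT macrophages. The log2 fold change was 6.22 (standard error 0.34, limma adjusted p = 5.17e-07) in KO and 5.93 in WT macrophages (standard error 0.23, limma adjusted p = 1.73e-08), higher than in 99.0% of the tested genes in both. *Ch25h* shares 159 bases of exon (11.5%) with *Gm26902* on the opposite strand, and strandedness of the counting is not given in the sources used here. *Gm26902* had at most 14.97 normalized counts in any library.

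*Gpr183* (chromosome 14, 121952551 to 121965195, reverse strand) had the largest fall. It had 42.3, 7.85 and 12.2 normalized counts in LPS-treated KO libraries, against 752, 495 and 576 in untreated ones. The LPS-treated WT libraries had 11.3, 9.55 and 5.56, against 363, 371 and 364 in untreated ones. No LPS-treated library came near an untreated one, and among the LPS-treated libraries KO replicate 1 was the highest, with 35 reads against 4 to 9 in the other 5. Means were 29.2 times lower with LPS in KO and 41.6 times lower in WT macrophages, and the KO value rests in part on replicate 1. The log2 fold change was -5.12 (standard error 0.50, limma adjusted p = 2.15e-05) in KO and -5.28 in WT macrophages (standard error 0.23, limma adjusted p = 5.04e-08). Without LPS-treated KO replicate 1 it was -5.79 in KO (limma adjusted p = 5.57e-07).

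The other enzymes behaved differently from *Ch25h*. *Cyp27a1*, a mitochondrial sterol hydroxylase (chromosome 1, 74713574 to 74737892, forward strand), had 535, 371 and 498 normalized counts in LPS-treated KO libraries, against 689, 561 and 899 in untreated ones. LPS-treated WT libraries had 538, 491 and 664, against 910.0, 879 and 1294 in untreated ones. The groups did not overlap in either genotype. *Cyp27a1* fell by 0.60 on the log2 scale in KO (standard error 0.19, limma adjusted p = 0.0170) and fell by 0.85 in WT macrophages (standard error 0.16, limma adjusted p = 8.73e-04), below the 2-fold needed for a call. Under other scalings it was called, in WT with upper quartile scaling (-1.17), quantile normalization (-1.01) and total reads (-1.58), and in KO with total reads (-1.29). *Cyp7b1* (chromosome 3, 18071950 to 18243338, reverse strand) had 2 reads in all 12 libraries together, 1 in LPS-treated WT replicate 3 and 1 in untreated KO replicate 1, and could not be tested. A count of 0 allows up to 3 counts over a group.

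Among the LXR targets, 2 went down and the others did not. *Mylip* (chromosome 13, 45389742 to 45412022, forward strand) had 304, 243 and 264 normalized counts in LPS-treated KO libraries, against 798, 682 and 758 in untreated ones. In WT macrophages the LPS-treated libraries had 255, 272 and 378, against 826, 883 and 923 in untreated ones. *Mylip* was thus lower in all LPS-treated libraries. It fell by 1.46 on the log2 scale in KO (standard error 0.10, limma adjusted p = 2.51e-06) and fell by 1.56 with LPS in WT macrophages (standard error 0.14, limma adjusted p = 5.88e-06).

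*Abca1* (chromosome 4, 53030787 to 53159895, reverse strand), the transporter that loads cholesterol onto apolipoproteins, had 4885, 5216 and 5281 normalized counts in LPS-treated KO libraries, against 9038, 7467 and 9969 in untreated ones. LPS-treated WT libraries had 4654, 4584 and 5933, against 10337, 9189.8 and 12408 in untreated ones. The groups did not overlap in either genotype. *Abca1* fell by 0.77 on the log2 scale in KO (standard error 0.10, limma adjusted p = 1.48e-04), which is not a call, and fell by 1.07 in WT macrophages (standard error 0.13, limma adjusted p = 4.12e-05), which is. Without untreated WT replicate 3, *Abca1* in WT macrophages fell by 0.96, under the threshold. In KO macrophages it was called under upper quartile scaling (-1.09), quantile normalization (-1.65) and scaling to total reads (-1.46). The 2 values lie on either side of the fold threshold, and the difference between them was not past its own test, as given below. *Mexis*, a lincRNA on the same chromosome (53261356 to 53270232) known to support *Abca1* transcription in macrophages, was picked after its values were seen. It had 7.67 ± 1.74 normalized counts in LPS-treated and 18.04 ± 4.68 in untreated KO macrophages, and 10.2 ± 0.937 in LPS-treated and 26.6 ± 6.84 in untreated WT macrophages, with a log2 fold change of -1.12 in KO (limma adjusted p = 0.0169) and -1.28 in WT (limma adjusted p = 0.00270).

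*Abcg1* (chromosome 17, 31057675 to 31117988, forward strand), which exports cholesterol to HDL particles, moved the other way. It had 7626, 5630.2 and 6077 normalized counts in LPS-treated KO libraries, against 4650.1, 4401 and 4227 in untreated ones. The LPS-treated WT libraries had 5172, 5464 and 6321, against 4931, 4238 and 4465 in untreated ones. Every LPS-treated library was above every untreated one of its genotype, with a log2 fold change of 0.53 in KO (standard error 0.11, limma adjusted p = 0.00201) and 0.31 in WT macrophages (standard error 0.08, limma adjusted p = 0.00826).

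*Apoe* (chromosome 7, 19696109 to 19699188, reverse strand) had by far the highest level of the 10 genes. It had 26064, 20825 and 30740.5 normalized counts in LPS-treated KO libraries, against 20148, 17829 and 25513 in untreated ones. LPS-treated WT libraries had 49240.5, 43005 and 34610.1, against 40455, 37770.4 and 28172 in untreated ones. LPS-treated and untreated groups overlapped, and the log2 fold changes of 0.29 in KO (limma adjusted p = 0.153) and 0.26 in WT macrophages (limma adjusted p = 0.167) did not pass. Libraries of the same replicate number and genotype deviated together, and the value was higher with LPS in 6 of 6 such pairs. With the replicate number as a block, the same fold changes of *Apoe* had limma adjusted p-values of 0.00116 in KO and 0.00103 in WT macrophages. The block was fitted with the size factors of the authors alone. Under the other scalings given below the log2 fold change of *Apoe* was negative in both genotypes.

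The receptors rose by small amounts. *Nr1h3* (chromosome 2, 91184061 to 91202834, reverse strand) had 329, 282 and 361 normalized counts in LPS-treated KO libraries, against 223, 175 and 195 in untreated ones. In WT macrophages the LPS-treated libraries had 238, 329 and 291, against 233, 201 and 192 in untreated ones. The groups did not overlap, though in WT macrophages the lowest LPS-treated library stood only just above the highest untreated one, and the log2 fold change was 0.71 in KO (standard error 0.13, limma adjusted p = 9.91e-04) and 0.45 in WT macrophages (standard error 0.14, limma adjusted p = 0.0142). *Nr1h2* (chromosome 7, 44549616 to 44553951, reverse strand), expressed at several times the level of *Nr1h3*, had 2011 to 2160.1 normalized counts in LPS-treated KO, 1939 to 2333 in LPS-treated WT, 1687 to 1756 in untreated KO and 1732 to 1809.8 in untreated WT libraries. Its log2 fold change was 0.26 in KO (limma adjusted p = 0.00292) and 0.25 in WT macrophages (limma adjusted p = 0.0103). *Nr1h3* shares 34 bases of exon with *Gm13783*, which had at most 6.96 normalized counts.

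The direction of these small rises depends on the scaling of the libraries. Normalized counts summed to 25980300 to 28239000 in LPS-treated and to 16361900 to 17385000 in untreated libraries. Scaled to total reads instead, a choice made after seeing these sums, the median of all tested genes moved by -0.68 in KO and -0.72 in WT macrophages, and *Nr1h2*, *Abcg1* and *Apoe* in both genotypes and *Nr1h3* in WT had a negative log2 fold change. Upper quartile scaling and scaling to total reads multiply each library by 1 factor, so that a change relative to the median of all tested genes stays nearly the same by construction and bears on no direction. With the size factors of the authors this relative change was 0.72 in KO and 0.46 in WT for *Nr1h3*, 0.54 and 0.33 for *Abcg1*, 0.30 and 0.27 for *Apoe*, and 0.27 and 0.27 for *Nr1h2*. Quantile normalization, which is not a factor per library, turned it for 3 of them. Under quantile normalization the relative change of *Abcg1* was -0.20 in KO and -0.40 in WT, that of *Apoe* -0.48 and -0.59, and that of *Nr1h2* -0.08 and -0.11, while that of *Nr1h3* was 1.07 and 0.83. Some of the falls passed by limma adjusted p in KO macrophages. With quantile normalization *Nr1h2* (0.00550), *Abcg1* (0.00449) and *Apoe* (0.00559) did. With total reads *Nr1h2* (3.22e-04) and *Apoe* (0.0472) did, and *Abcg1* (0.167) did not. With upper quartile scaling *Nr1h2* (0.386) and *Apoe* (0.864) did not. *Ch25h*, *Gpr183*, *Mylip*, *Cyp27a1* and *Abca1* kept their direction under each of these scalings.

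**Figure D2:**
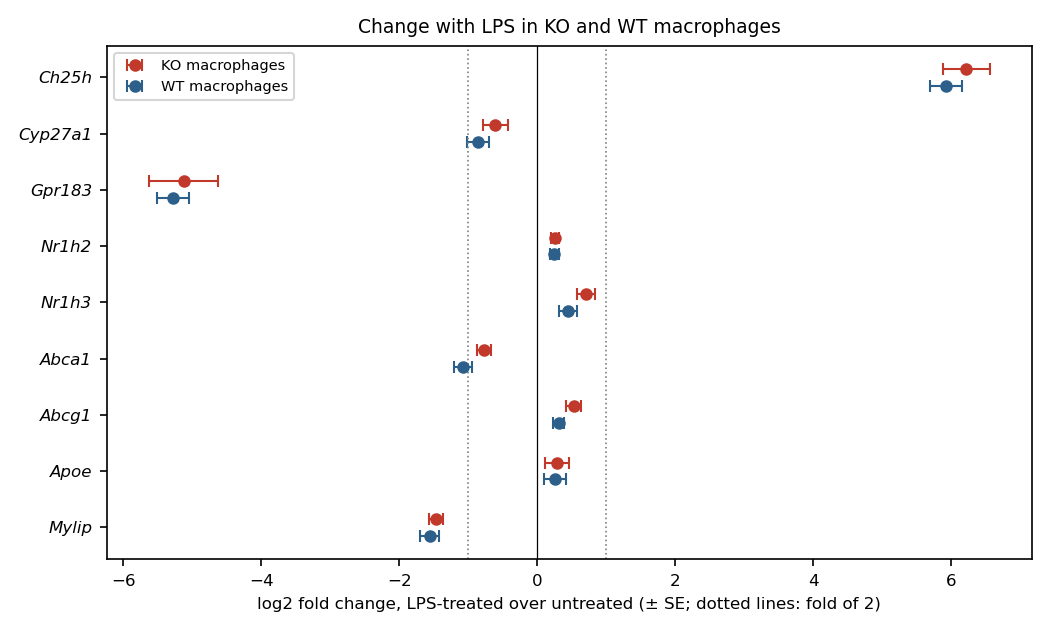
Log2 fold change of the 9 tested genes with LPS (x axis, LPS-treated over untreated, with standard errors), KO macrophages in red above WT macrophages in blue; dotted lines mark a fold of 2. *Ch25h* lies at 6.22 in KO and 5.93 in WT, *Gpr183* at -5.12 and -5.28, and the other genes lie between -1.56 and 0.71.

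The order of the 10 genes changed with LPS. Per kb of exon, the levels in untreated macrophages were highest for *Apoe*, then *Abca1*, *Abcg1*, *Nr1h2* and *Cyp27a1*, and lowest for *Ch25h* and *Cyp7b1*. In untreated KO macrophages *Apoe* was at 9899 ± 1844 normalized counts per kb, *Abca1* at 852 ± 122 and *Ch25h* at 2.39 ± 1.17 (SD, n = 3). In LPS-treated KO macrophages *Ch25h* was at 222 ± 48.6 per kb, not separable from *Cyp27a1* at 215 ± 39.4, and *Gpr183* was at 7.21 ± 6.50. In LPS-treated WT macrophages *Ch25h* was at 449.5 ± 109 per kb, within the spread of *Abca1* at 488 ± 73.3, and *Abcg1* was above both at 775 ± 81.8. *Mylip* at 231 ± 18.1 and *Gpr183* at 211 ± 45.5 per kb were not separable in untreated KO macrophages. Per kb of the longest transcript, *Nr1h2* (862 ± 17.3) and *Abca1* (860.0 ± 123) were level in untreated KO macrophages.

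The second question was how these genes differed between KO and WT macrophages, a comparison in which genotype and colony cannot be told apart. None of the 9 genes tested in LPS-treated macrophages was called between KO and WT by limma, where 0.232% of 12504 tested genes were called and 0.816% passed by adjusted p alone. At an unadjusted p under 0.05 there were 2 genes (*Ch25h* and *Apoe*). The quasi-likelihood test of edgeR and DESeq2, both on the recovered reads, each called 1, which was *Ch25h*. By adjusted p alone edgeR passed *Ch25h* and DESeq2 passed *Ch25h* and *Apoe*. None of the 8 genes tested in untreated macrophages was called, where 0.193% of 12461 tested genes were and 0.538% passed by adjusted p alone. There 4 genes had an unadjusted p under 0.05 (*Gpr183*, *Apoe*, *Mylip* and *Cyp27a1*), and neither edgeR nor DESeq2 called any, though by adjusted p alone DESeq2 passed 2 (*Gpr183* and *Apoe*) and edgeR 0. The median log2 fold change, KO over WT, was -0.03 in LPS-treated and -0.16 in untreated macrophages, beside -0.0015 and -0.01 over all tested genes.

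*Ch25h* was lower in KO macrophages. The 3 LPS-treated KO libraries (231 to 358 normalized counts) were all below the 3 LPS-treated WT libraries (450.4 to 726), with a ratio of means of 0.494. The log2 fold change was -1.01 (standard error 0.20, 95% interval -1.45 to -0.57, limma adjusted p = 0.0526), just outside the call. Over 20 alternatives it ranged from -1.23 to -0.82, with adjusted p-values of 1.30e-05 to 0.289. It was called in 6 of these, including edgeR (adjusted p = 0.0339), DESeq2 (adjusted p = 1.30e-05), and limma without LPS-treated KO replicate 1 (adjusted p = 0.0282) or WT replicate 1 (adjusted p = 0.0372). In the libraries with low *Xist* alone, 2 in each group and a choice made after seeing the data, it was -1.03 (limma adjusted p = 0.00730). Untreated KO libraries had 13 reads of *Ch25h* in all and untreated WT libraries 39, again without overlap, and their mean was under the level needed for the test. The study itself called *Ch25h* lower in LPS-treated KO macrophages on these samples with DESeq2, so its values here are not independent evidence. By RT-qPCR on freshly prepared macrophages, the study also reported *Ch25h* as significantly lower in KO, both LPS-treated and untreated.

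*Apoe* was lower in KO macrophages in both conditions, and the genotypes did not overlap in either. LPS-treated KO macrophages had 25877 ± 4960.3 normalized counts and LPS-treated WT macrophages 42285 ± 7342, while untreated KO macrophages had 21163 ± 3941 and untreated WT macrophages 35466 ± 6458 (SD, n = 3 each). The log2 fold change was -0.71 (standard error 0.15, 95% interval -1.05 to -0.37, limma adjusted p = 0.0803) in LPS-treated and -0.74 (standard error 0.16, 95% interval -1.12 to -0.37, limma adjusted p = 0.113) in untreated macrophages, neither of which passed. By adjusted p *Apoe* passed in 3 of 20 alternatives in LPS-treated macrophages, with no filter (limma adjusted p = 0.00763), with DESeq2 (adjusted p = 6.00e-05) and without WT replicate 3 (limma adjusted p = 0.0485). It passed in 2 of 20 in untreated macrophages, with no filter (limma adjusted p = 0.00887) and with DESeq2 (adjusted p = 0.0281). WT replicate 1 was the highest *Apoe* library in each condition and KO replicate 2 the lowest, and these were the replicates with high *Xist*. In the libraries with low *Xist* alone the log2 fold change was -0.45 (limma adjusted p = 0.402) in LPS-treated and -0.52 (limma adjusted p = 0.472) in untreated macrophages, still with no overlap. The summed macrophage markers tended lower, with overlap, at 273170 to 339137 normalized counts in LPS-treated KO and 339103 to 392543 in LPS-treated WT libraries, and 215104 to 268170 in untreated KO and 261612 to 323497 in untreated WT libraries. The median log2 fold change of the 8 markers, KO over WT, was only -0.05 in LPS-treated and -0.06 in untreated macrophages. None of these 8 markers was called between the genotypes, and their part in the level of *Apoe* was not tested.

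*Gpr183* was higher in untreated KO macrophages. The 3 untreated KO libraries (495 to 752 normalized counts) were all above the 3 untreated WT libraries (363 to 371). The log2 fold change was 0.71 (standard error 0.13, 95% interval 0.40 to 1.02, limma adjusted p = 0.0737), which did not pass. By adjusted p *Gpr183* passed in 5 of 20 alternatives, with no filter (limma adjusted p = 0.00484), with DESeq2 (adjusted p = 1.69e-05), with the replicate number as a block (limma adjusted p = 0.0237), and without untreated KO replicate 1 (limma adjusted p = 0.0451) or KO replicate 2 (limma adjusted p = 0.0398). Replicate numbers did not pair the genotypes, so the block is no true pairing here. In LPS-treated macrophages the groups overlapped, with 0.86 (standard error 0.58, limma adjusted p = 0.673). That value rests on KO replicate 1, and without this library the mean was below the level needed for the test.

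The remaining genes differed less. *Mylip* in untreated macrophages was at 746 ± 58.6 normalized counts in KO and 877 ± 49.1 in WT, without overlap (log2 fold change -0.23, limma adjusted p = 0.272). *Cyp27a1* was at 716 ± 170.4 in untreated KO and 1028 ± 232 in untreated WT macrophages, with overlap (log2 fold change -0.52, limma adjusted p = 0.355). *Abca1* had a log2 fold change of 0.03 (95% interval -0.18 to 0.24) in LPS-treated and -0.27 (95% interval -0.57 to 0.03) in untreated macrophages. For *Nr1h2* the 95% interval was -0.21 to 0.14 in LPS-treated and -0.15 to 0.07 in untreated macrophages, for *Nr1h3* -0.12 to 0.49 and -0.34 to 0.19, and for *Abcg1* -0.07 to 0.43 and -0.19 to 0.12. These intervals do not reach a 2-fold difference in either direction.

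**Figure D3:**
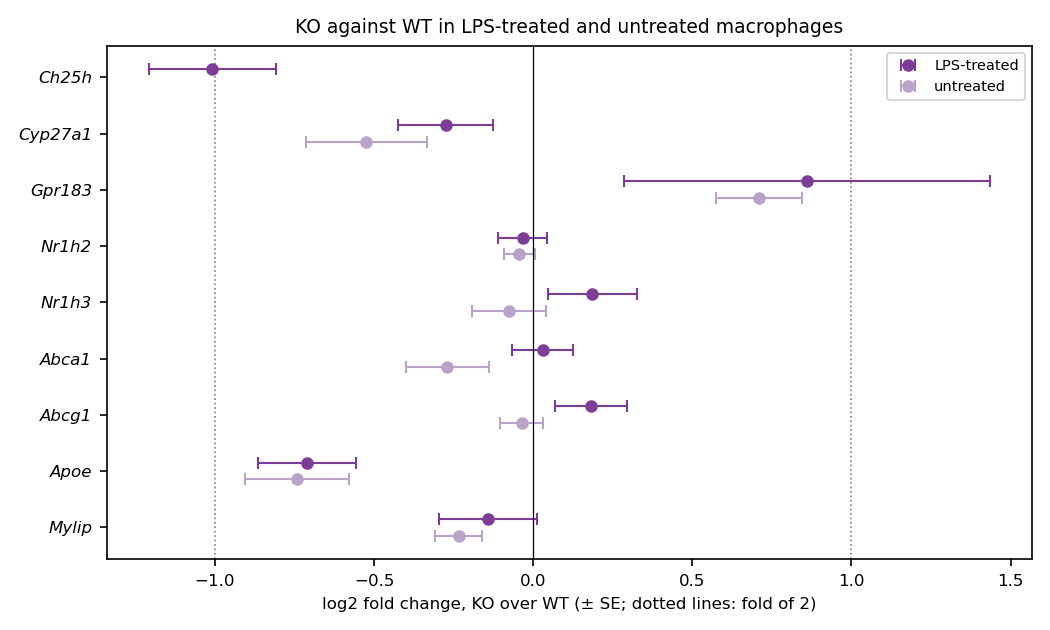
Log2 fold change of the tested genes between genotypes (x axis, KO over WT, with standard errors), LPS-treated macrophages in dark purple above untreated ones in light purple; dotted lines mark a fold of 2. *Ch25h* (-1.01, LPS-treated only) and *Apoe* (-0.71 and -0.74) lie furthest to the left, and *Gpr183* (0.86 and 0.71) furthest to the right.

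The response to LPS was not shown to differ between genotypes for any of the 9 genes. In a limma fit of all 12 libraries with an interaction of genotype and LPS, 0.00787% of 12711 tested genes passed (1 gene) and none of these 9, whose adjusted p-values were all at least 0.999. At an unadjusted p under 0.05 in limma there were 0 of the 9. By adjusted p, edgeR and DESeq2 also passed 0. The lowest unadjusted p was 0.122, for *Abca1*, in this limma fit, with a difference of 0.30 between the log2 fold changes (95% interval -0.09 to 0.69). For *Ch25h* the difference was 0.30 (95% interval -0.65 to 1.24) and for *Gpr183* 0.15 (95% interval -1.19 to 1.49). Both of these intervals are wide enough to hold a 2-fold difference. For *Nr1h2* it was 0.01 (95% interval -0.19 to 0.21).

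Genes around these 10 were followed in 5 lists of related genes, whose counts stand beside the 17.3% higher and 16.6% lower called among all tested genes in KO macrophages, and the 17.1% and 16.9% in WT macrophages. Of 16 further LXR targets, 12 could be tested in WT macrophages, of which 1 was called higher and 3 lower with LPS, and 11 in KO macrophages, with the same count of 1 and 3. *Arl4c*, a small GTPase gene, had 90.5 ± 9.17 normalized counts in LPS-treated and 2238 ± 192 in untreated KO macrophages, and 96.1 ± 14.9 in LPS-treated and 2409 ± 519 in untreated WT macrophages. *Scd2*, a fatty acid desaturase gene, had a log2 fold change of -3.11 in KO and -2.82 in WT macrophages, and *Fasn*, the fatty acid synthase gene, of -1.44 and -1.47. *Mertk*, which encodes a receptor for the uptake of apoptotic cells, rose, with 6832 ± 365 normalized counts in LPS-treated and 1562 ± 251 in untreated KO macrophages, and 7909.8 ± 379.5 in LPS-treated and 1979 ± 228 in untreated WT macrophages. The median log2 fold change of the list was -0.07 in KO and -0.03 in WT macrophages.

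Of 12 LXR partners and co-regulators, 11 could be tested, and 1 was called higher and 3 lower in each genotype. *Rxra*, the main partner with which LXR binds DNA, had 144 ± 3.00 normalized counts in LPS-treated and 1043 ± 159 in untreated KO macrophages, and 165 ± 28.1 in LPS-treated and 1136 ± 101 in untreated WT macrophages. Its log2 fold change was -2.84 in KO (limma adjusted p = 8.50e-08) and -2.79 in WT macrophages (limma adjusted p = 5.16e-08). *Tbl1xr1*, a subunit of corepressor complexes, had a log2 fold change of -1.66 in KO and -1.58 in WT macrophages. Its relative *Tbl1x* rose, with a log2 fold change of 1.25 in KO and 1.29 in WT macrophages, a call that ended under upper quartile scaling, quantile normalization and scaling to total reads. The median of the list was -0.49 in KO and -0.44 in WT macrophages, beside -0.01 and -0.02 over all tested genes.

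Of 15 genes of cholesterol uptake, storage and trafficking, 14 could be tested, of which 3 were called higher and 3 lower with LPS in each genotype. This balance moved to 1 higher and 7 lower in KO and 2 higher and 7 lower in WT with total reads, and to 2 higher and 7 lower in both with quantile normalization. Among all tested genes, total reads gave 1447 higher and 4621 lower of 12732 in KO, and 1379 and 4784 of 12656 in WT. Quantile normalization gave 1936 higher and 2227 lower in KO, and 1875 and 2182 in WT. Of the 6 calls of this list, 4 in KO and 5 in WT were kept with total reads, and 5 in each with quantile normalization. *Msr1*, a scavenger receptor gene, had a log2 fold change of 2.12 in KO and 2.07 in WT macrophages. *Soat1*, which esterifies cholesterol for storage, had a log2 fold change of -1.48 in KO and -1.54 in WT, and *Lrp8*, a lipoprotein receptor gene, of -2.25 and -1.96. Of 12 oxysterol-binding proteins, 10 could be tested in KO and 11 in WT macrophages, and 2 were called lower in each and none higher. These were *Osbp2* (log2 fold change -1.95 in KO and -2.168 in WT) and *Osbpl11* (-1.41 and -1.20). With total reads 9 in KO and 11 in WT were called lower, where 4621 of 12732 and 4784 of 12656 of all tested genes were. By adjusted p alone, with the size factors of the authors, 9 of the oxysterol-binding proteins were lower in each genotype and 0 higher. Among all tested genes 35.7% were lower in KO and 36.6% in WT by this criterion. The median of the list was -0.40 in KO and -0.51 in WT macrophages. Of 12 other oxysterol and bile acid enzymes most had few reads, and 4 could be tested in KO and 3 in WT. *Amacr*, a racemase of bile acid synthesis, fell by 1.30 in WT, and had a log2 fold change of -0.88 in KO, not a call. *Cyp39a1*, an oxysterol hydroxylase gene picked after its values were seen, had 22.3 ± 1.24 normalized counts in LPS-treated and 8.26 ± 2.25 in untreated KO macrophages. It was called higher there (log2 fold change 1.36, limma adjusted p = 0.00340), a call that ended with scaling to total reads. In WT macrophages it was also higher with LPS, at 15.3 ± 6.11 against 4.11 ± 1.27 in untreated ones, without overlap. Its mean in WT was too low for the test. No gene of the 5 lists was called between KO and WT in either condition or for the interaction.

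**Figure D4:**
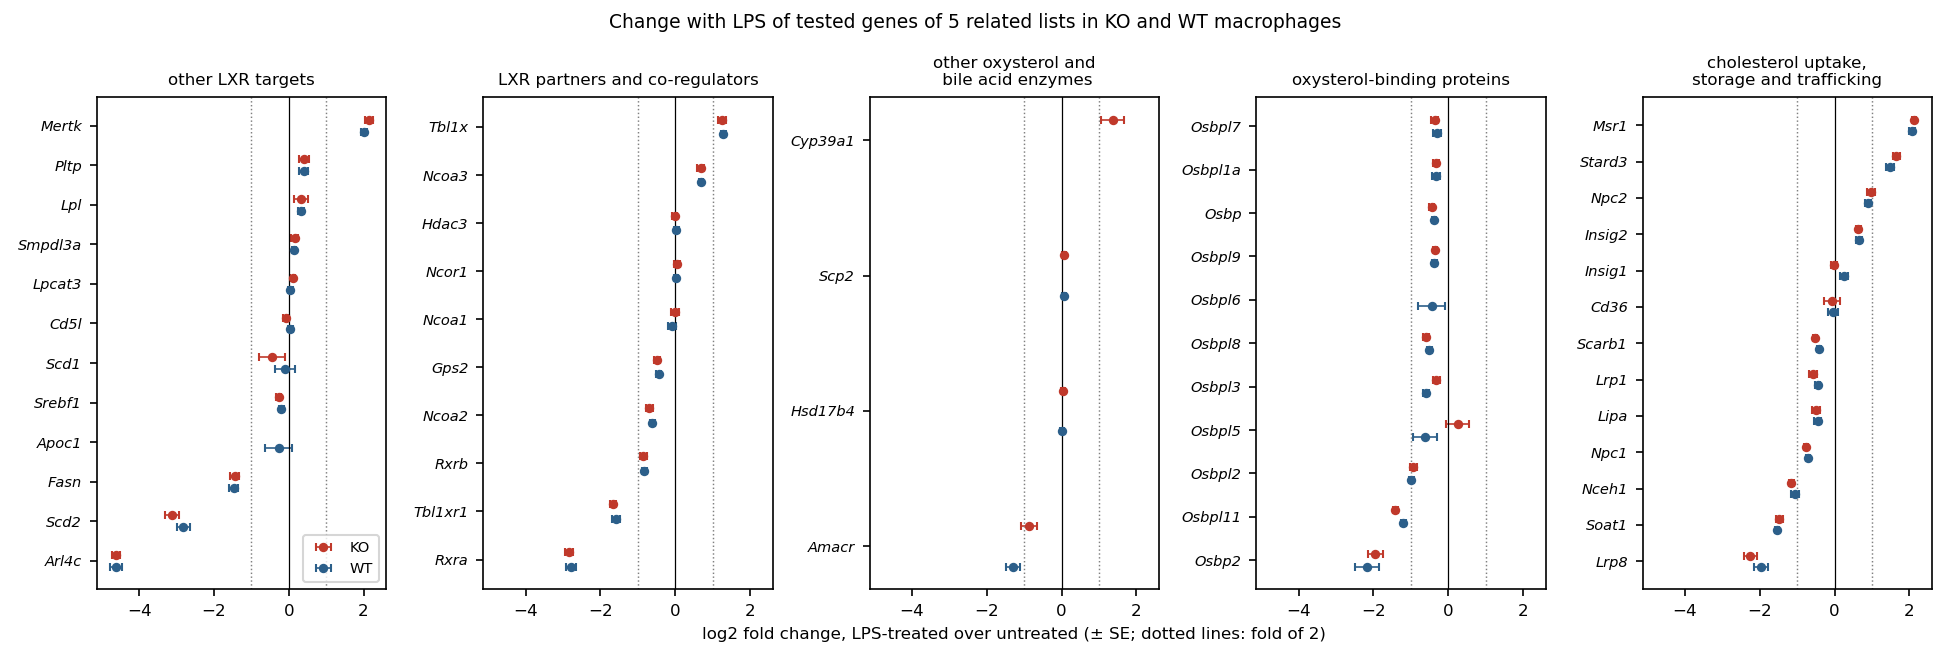
Log2 fold change with LPS (x axis, LPS-treated over untreated, with standard errors) of tested genes of 5 related lists, 1 panel per list (some genes not shown), KO macrophages in red above WT macrophages in blue; dotted lines mark a fold of 2. In the first panel *Mertk* lies at 2.14 in KO and 2.00 in WT and *Arl4c* at -4.61 and -4.62, and in the second *Rxra* lies at -2.84 and -2.79.

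The genes whose pattern over the 12 libraries was most like that of each gene were found by the root mean square difference of centred log2 values, among 10387 genes with a mean of at least 50 normalized counts. For *Ch25h* these were *Slamf1* (0.388), *Slfn4* and *Ccl12*, and for *Gpr183* they were *Depdc7* (0.475), *Smad3* and *Thbd*. The neighbours of *Abca1* were *Mknk1* (0.0941), *Zfp563* and *4833420G17Rik*, and those of *Mylip* were *Tmppe* (0.112), *Zmat3* and *H2bc21*. For *Cyp27a1* they were *Stab1* (0.153), *Katnip* and *Crebrf*, and for *Apoe* *Pdgfc* (0.164), *Folr2* and *Ccl6*. For *Abcg1* they were *Evi2a* (0.0799), *Luc7l3* and *Med15*, for *Nr1h2* *Mboat7* (0.0447), *Rab11a* and *Exoc2*, and for *Nr1h3* *Foxred1* (0.118), *Snrpc* and *Timm10b*. Over the 4 group means the nearest gene remained *Slamf1* for *Ch25h*, *Stab1* for *Cyp27a1* and *Pdgfc* for *Apoe*, and was another gene for the other 6. The difference is not scaled by the size of a gene's own changes, so its values do not rank the matches of different genes.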

How the data were processed

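Poly(A) RNA of 12 BMDM cultures was sequenced. Per the labels and the study's methods, the authors demultiplexed reads with bcl2fastq 2.17, trimmed them with Trimmomatic 0.39, aligned them with STAR 2.7.4a to GRCm38, counted them with featureCounts (Subread 2.0.1) and divided the counts by DESeq2 1.32.0 size factors (R 4.1.2). The deposited normalized counts are this scaled signal, whose steps gave whole reads for 100% of values at a tolerance of 1e-06 reads. Size factors assume that most genes do not change.

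limma 3.58.1 (R 4.3.3, trended prior) was run on log2(value + 1) for genes averaging 10 or more over the 2 groups compared. Calls needed both an adjusted p under 0.05 and a log2 fold change of 1 or more in either direction (interaction: adjusted p alone). The recovered reads were tested with edgeR 4.0.16 and DESeq2 1.42.0. Scripts used Python 3.11.15 and were tested on simulated data. The 10 genes and the lists were chosen with earlier results of these data known. Of each list, up to 4 genes called for LPS in WT with the largest change are named, and some list genes are not reported here. LPS-treated and untreated libraries with the same number deviated together (r = 0.292, 0.2785 and 0.167 in KO, 0.331, 0.186 and 0.2395 in WT), so the numbers were taken to pair them in the fits with a replicate block. All main tests were unpaired, as were the comparisons in the study's methods, and their p-values take no account of this pairing. Comparisons share libraries and are not independent of each other.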

Additional observations from a re-analysis of the deposited data

How the results depend on the processing

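Alternatives to pseudocount, filter, scaling, variance prior, test, threshold and libraries were run for each comparison, of which scaling to total reads and the libraries with low *Xist* alone were chosen after seeing the data. With LPS in KO macrophages, 3 of the genes were called, which became 5 with scaling to total reads (*Abca1* and *Cyp27a1* added), 8 without a fold threshold, and 4 with upper quartile scaling and quantile normalization (*Abca1* added). In WT macrophages 4 became 8 without a fold threshold, and 5 with each of these 3 scalings (*Cyp27a1* added). Log2 fold changes with LPS that turned negative in KO were, with upper quartile scaling, *Nr1h2* -0.058 and *Apoe* -0.032, with quantile normalization *Nr1h2* -0.24, *Abcg1* -0.36 and *Apoe* -0.64, and with total reads *Nr1h2* -0.42, *Abcg1* -0.16 and *Apoe* -0.40. In WT they were, with upper quartile scaling, *Nr1h2* -0.070, *Abcg1* -0.0096 and *Apoe* -0.066, with quantile normalization *Nr1h2* -0.26, *Abcg1* -0.55 and *Apoe* -0.74, and with total reads *Nr1h2* -0.47, *Nr1h3* -0.28, *Abcg1* -0.41 and *Apoe* -0.47. Total reads also moved the calls among all genes to 1447 higher and 4621 lower in KO (2201 and 2108 as reported) and to 1379 and 4784 in WT (2158 and 2136 as reported), which follows from the lower scaling of LPS-treated libraries. Between genotypes in LPS-treated macrophages the count of 0 became 1 (*Ch25h*) with no filter, edgeR, DESeq2 and low *Xist* alone, and was 0 to 1 when single libraries were left out (1 without KO replicate 1 or WT replicate 1). There *Abca1* was -0.038 with low *Xist* alone, and with single libraries left out *Abca1* ranged from -0.036 to 0.15, *Nr1h2* from -0.10 to 0.037 and *Mylip* from -0.25 to 0.033. In untreated macrophages *Nr1h3* was 0.088 and *Abcg1* 0.027 with low *Xist* alone, and with single libraries left out *Nr1h3* ranged from -0.17 to 0.0074 and *Abcg1* from -0.085 to 0.024. The interaction was -0.22 for *Ch25h* and -0.014 for *Gpr183* with a pseudocount of 5. With single libraries left out it ranged from -0.075 to 0.49 for *Ch25h*, -0.52 to 0.63 for *Gpr183*, -0.10 to 0.19 for *Apoe*, -0.052 to 0.081 for *Nr1h2* and -0.017 to 0.27 for *Mylip*. The causes of these changes were not tested.

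Calls among all genes in LPS-treated macrophages, 29 between genotypes, were 5 with no trend, 44 with DESeq2, 16 with low *Xist* alone, 102 without a fold threshold, 13 at an adjusted p under 0.01 and 11 to 42 with single libraries left out (11 without WT replicate 2, 15 without KO replicate 3). In untreated macrophages 24 became 42 with no filter, 11 at a mean of at least 50, 2 with no trend, 50 with DESeq2, 6 with low *Xist* alone, 67 without a fold threshold, 4 at an adjusted p under 0.01 and 4 to 26 with single libraries left out (6 and 4 on omitting WT replicates 1 and 2, and 11 and 5 on omitting KO replicates 2 and 3). For LPS without a fold threshold, 4626 genes were higher and 4548 lower in KO, and 4639 higher and 4627 lower in WT, and the 1 gene of the interaction became 23 with DESeq2, 0 with low *Xist* alone, 3 with the replicate block and 1 to 3 with single libraries left out. The replicate block changed no call of the 10 genes for LPS by the fold rule. Replicate numbers did not pair the genotypes. With the replicate block there, the calls among all genes in untreated macrophages were 44, and *Gpr183* (limma adjusted p = 0.0237) and *Cyp27a1* (limma adjusted p = 0.0117) passed by adjusted p. Counts of under 20 reads limit *Ch25h* in untreated and *Gpr183* in LPS-treated libraries other than KO replicate 1 (35 reads).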
